A study of Mus musculus with 9 samples.

Results

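Cadherins and protocadherins were examined as the probes of a mouse Agilent array whose gene name was Cdh with a number, began with Pcdh, or was Celsr1, Celsr2 or Celsr3, leaving out Cdh5, the cadherin of blood vessel walls. Of 41174 probes for 27962 named genes, 117 probes of 69 genes matched. On 3 or more of the 9 arrays the scanner software marked 106 of these, of 64 genes, as bright enough to stand well above background, against 37237 probes of 25321 genes on the whole array. Of the 106 probes 105 were tested, since a Pcdh17 probe (A_51_P131747) carried outlier flags. The other 11 matched probes were too dim. The tested probes fell into 9 type I classical cadherin probes, 22 type II probes, 6 of other Cdh genes, 17 of delta protocadherins, 5 of other protocadherins outside the clusters, 6 of the alpha, 25 of the beta and 9 of the gamma cluster, and 6 of Celsr genes.

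RNA came from 3 groups of sorted cells of transgenic mice aged 6 to 8 weeks, with 3 arrays (A, B and C) in each. SVZ Sox2-GFP cells were green cells of the subventricular zone, the stem cell region beside the lateral ventricle, from a line in which the Sox2 promoter drives GFP. Hip Sox2-GFP cells were green cells of the hippocampus of that same line. Hip DCX-DsRed cells were red hippocampal cells of a line in which the Dcx promoter drives DsRed. Sox2 is a transcription factor of neural stem cells that astrocytes also express, and Dcx a microtubule protein of newborn neurons, so each reporter marks every cell in which its promoter is active. For each experiment, tissue of 10 dissections was pooled, and RNA of 1000 cells was amplified and labelled with Cy3. All groups carried a reporter, and the labels give no treatment.

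Classical cadherins join neighbouring cells by binding like molecules across the gap in the presence of calcium, and their tails bind catenins, which reach the actin skeleton. Type I members include Cdh1 and Cdh2, the E- and N-cadherins, and type II members such as Cdh10 and Cdh11 mark subsets of neurons and glia. Delta protocadherins, among them Pcdh9 and Pcdh10, are adhesion proteins of the developing and adult brain with tails unlike those of classical cadherins. The alpha, beta and gamma protocadherins come from neighbouring gene clusters, of which each neuron uses its own selection, and they take part in self-recognition of neurites. Celsr proteins carry cadherin repeats on a receptor with several membrane spans and act in planar cell polarity.

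All values below are processed signals on the log2 scale, scaled so that 0 is the 75th percentile of each array, and 1 unit doubles the signal. Differences came from a limma fit of all 36780 tested probes on 9 arrays, and a probe was called at a Benjamini-Hochberg adjusted p under 0.05. Signals of different probes are not comparable in level. At the edge of the background filter, with 3 arrays above background, stood a Pcdhb12 probe (A_51_P213737) with a mean of -6.62, a Pcdhb17 probe (A_51_P337771) at -6.28 and the Cdh1 probe at -5.91. Just outside, with 2 arrays, stood the Pcdhga12 probe with a mean of -6.42.

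Between 80.4% and 88.4% of all probes were well above background on each array. Hip Sox2-GFP replicate C stood apart. Over all probes it correlated at 0.778 and 0.743 with replicates A and B of its group, which correlated at 0.90 with each other. It was the lowest of the 9 arrays for 54 of 105 member probes (51.4%) and for 32.5% of all probes. The median member lay at -3.60 on that array, against -2.01 and -1.96 on Hip Sox2-GFP A and B and between -1.71 and -2.07 on the other arrays. Differences without it are given beside those it moves most. Cell type markers were summed as linear signal in units of the array's 75th percentile. Each marker gene was read by 1 probe, the brightest of those tested. The 7 newborn neuron markers, Dcx among them, summed to between 3.51 and 23.1 in SVZ Sox2-GFP cells, 1.86 and 5.04 in Hip Sox2-GFP cells and 13.2 and 15.0 in Hip DCX-DsRed cells. Dcx itself did not differ in the test between Hip Sox2-GFP and Hip DCX-DsRed cells (difference -1.01 ± 1.47 SE, adjusted p = 0.787). Summed markers of other cell types also differed between the groups, as given beside the results below. Those of myelinating oligodendrocytes were highest in Hip DCX-DsRed cells, and those of choroid plexus and ependymal cells in Hip Sox2-GFP cells. Those of astrocytes were higher on the SVZ Sox2-GFP arrays and on Hip Sox2-GFP A and B than on any Hip DCX-DsRed array. On Hip Sox2-GFP C they were lowest. The group names therefore stand for the sorted populations only. The arrays lay on 3 slides. Slide 1 held SVZ Sox2-GFP A and Hip DCX-DsRed A and B, and slide 2 held Hip Sox2-GFP A and B alone. Slide 3 held SVZ Sox2-GFP B and C, Hip Sox2-GFP C and Hip DCX-DsRed C. Slide and group thus went together in part, and for Hip Sox2-GFP C the replicate and its slide cannot be told apart. Hip DCX-DsRed A and B correlated at 0.899 with each other and at 0.846 and 0.8485 with C. In bulk RNA, fewer cells of a type and less RNA per cell cannot be told apart.

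**Figure D1:**
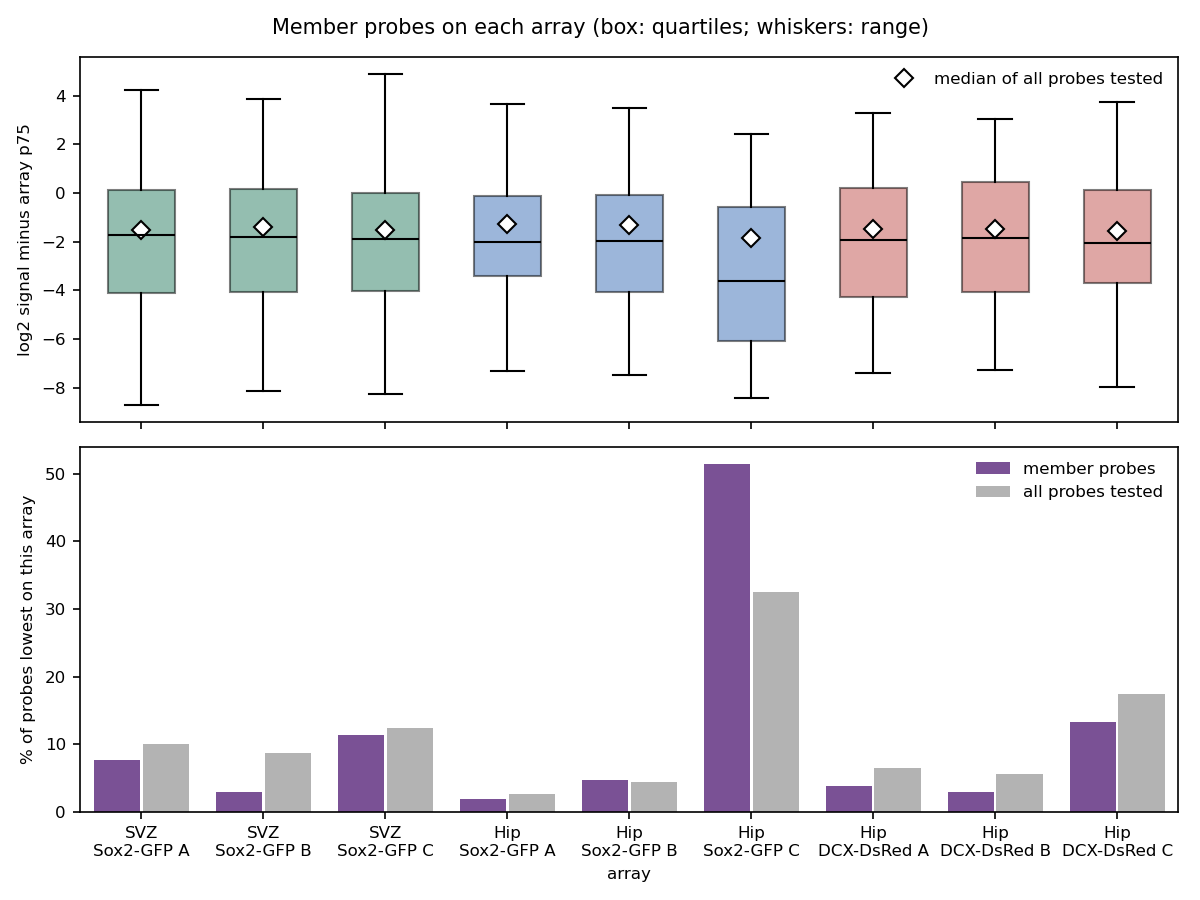
Values of the 105 cadherin and protocadherin probes on each array (boxes; diamonds mark the median of all tested probes; log2 scale, 0 at the 75th percentile of each array) and the percent of probes for which each array was the lowest of the 9. Hip Sox2-GFP replicate C has the lowest box, with a member median of -3.60, and was lowest for 51.4% of member probes and 32.5% of all probes.

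Hip Sox2-GFP cells were set against Hip DCX-DsRed cells, the populations sorted from the hippocampus by the Sox2 and the Dcx reporter. Pcdh9 was lower in Hip Sox2-GFP cells with 2 called probes. A Pcdh15 probe was called as well, but reached the test through the arrays of Hip DCX-DsRed cells, where it was high, and was at background in Hip Sox2-GFP cells. No other member passed the test. These were 3 called probes of 105 (2.86%), all lower, where 3.15% of all probes were called and 1.32% were called lower, so the share called was near that of the array. At an unadjusted p under 0.05 stood 14 members (13.3%), against 16.5% of all probes. The arrays of both groups did not overlap for 21 members (20%), against 24.6% of all probes. The median member difference was -0.28 and that of all probes -0.04, and 71 of 105 members were lower in Hip Sox2-GFP cells. Without Hip Sox2-GFP replicate C the median difference was 0.03, with 53 members higher and 52 lower, against 20083 higher and 16697 lower over all probes. Of the members 2 were then called, the Pcdh9 probe A_51_P432432 and Cdh26, among 1172 of 36780 probes, while Pcdh15 and the other Pcdh9 probe were not.

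Pcdh9, a delta protocadherin expressed in the brain, was read by 5 probes. The probe A_51_P432432 had values of 0.43, -0.27 and -1.95 in Hip Sox2-GFP cells, against 2.99, 2.77 and 3.73 in Hip DCX-DsRed cells. No array of either group came near the other, and the SVZ Sox2-GFP arrays lay between them at 1.87, 0.89 and 1.69. The difference of Hip Sox2-GFP minus Hip DCX-DsRed was -3.76 ± 0.64 (SE), or 13.5-fold (limma adjusted p = 0.02245). A second called probe, A_52_P197199, had values of -0.89, -1.21 and -1.19 in Hip Sox2-GFP cells, against 0.32, 0.61 and 1.06 in Hip DCX-DsRed cells. These groups again did not overlap, and the difference was -1.76 ± 0.36 (SE), or 3.39-fold (limma adjusted p = 0.04379).

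The remaining 3 Pcdh9 probes had the same sign and did not overlap between the groups, and none was called. The difference was -5.57 ± 1.49 (SE) for A_51_P475704 (adjusted p = 0.0963), with values of -2.32, -3.58 and -8.34 in Hip Sox2-GFP cells against 0.44, 1.83 and 0.21 in Hip DCX-DsRed cells. It was -2.06 ± 0.52 (SE) for A_52_P461777 (adjusted p = 0.0806) and -4.59 ± 1.58 (SE) for A_51_P124262 (adjusted p = 0.188). Hip Sox2-GFP C was not above background for A_51_P475704 or A_51_P124262 and was the lowest array there. Without it these probes had -3.77 (adjusted p = 0.088) and -2.88 (adjusted p = 0.3006), and A_52_P461777 had -1.52 (adjusted p = 0.1008). Without replicate C, the called probe A_51_P432432 kept a difference of -3.08 (adjusted p = 0.02462), and A_52_P197199 had -1.71 (adjusted p = 0.07592). The call of A_51_P432432 was lost without Hip Sox2-GFP B (adjusted p = 0.0562) or without Hip DCX-DsRed A, B or C (adjusted p of 0.0758, 0.0665 and 0.0795), and with only the 6 hippocampal arrays in the fit (adjusted p = 0.05368). With the slide as a fixed block it was -5.20 (adjusted p = 0.01379), and on slide 3 alone, with 1 array of each hippocampal group, -5.68. Both of these values rest on replicate C for the Hip Sox2-GFP group. For A_52_P197199 these values were -1.83 (adjusted p = 0.1051) and -2.25, and its call stood in 7 of 21 other settings.

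Markers of myelinating oligodendrocytes moved with Pcdh9. The 10 markers summed to between 21.3 and 78.3 in SVZ Sox2-GFP cells, 1.85 and 39.6 in Hip Sox2-GFP cells, lowest on replicate C, and 254 and 325 in Hip DCX-DsRed cells, and 5 of the 10 were called lower in Hip Sox2-GFP cells. All 10 were above background on at least 1 array in each group. The probes most like Pcdh9 A_51_P432432 over the 9 arrays, by Pearson's correlation, were of Slc20a1 (0.978), Olfr181 (0.976), the transcript TC1447684 (0.975), Syt11 (0.975) and Cnp1 (0.974). Cnp1 is the array's name for Cnp, a myelin enzyme in that marker list. The part of these cells in the Pcdh9 result was not tested.

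Pcdh15, a large protocadherin of the sensory hair bundle of the inner ear, had values of -7.33, -7.45 and -7.42 in Hip Sox2-GFP cells, against -3.04, -1.87 and -3.18 in Hip DCX-DsRed cells (A_51_P132760). It was above background on all Hip DCX-DsRed arrays, on SVZ Sox2-GFP B alone among the SVZ arrays, and on no Hip Sox2-GFP array. Since it was not well above background in Hip Sox2-GFP cells, its fold difference could not be measured. Set against the lowest signals marked above background on the Hip Sox2-GFP arrays, the Hip DCX-DsRed mean was 7.19-fold higher. This is a rough figure and no strict limit, since marked and unmarked signals overlapped. On Hip Sox2-GFP B, a Pcdhb19 probe (A_51_P268469) at -4.99 was not marked, and a Pcdhb16 probe (A_52_P24851) at -5.26 was. The fitted difference of -4.70 ± 0.83 (SE; limma adjusted p = 0.02499) depends on values at background and is no measure of size. The 3 Hip DCX-DsRed arrays alone took the probe through the filter, so the call is a description of where the probe was detected. With normexp background correction the difference was -1.63, or 3.10-fold (limma adjusted p = 0.04213), smaller than the 7.19-fold above. The call was lost without any 1 of the 6 hippocampal arrays (adjusted p between 0.05078 and 0.09318) and with the slide as a fixed block (-4.73, adjusted p = 0.1158), and on slide 3 the difference was -4.24. Another Pcdh15 probe did not pass the background filter. The 5 markers of oligodendrocyte precursors summed to between 5.999 and 6.999 in SVZ Sox2-GFP cells, 6.42 and 8.77 in Hip Sox2-GFP cells and 12.5 and 16.7 in Hip DCX-DsRed cells, with 0 of 5 called. The myelin markers given above moved the same way, and the part of either in the Pcdh15 values was not tested. Of the other protocadherins outside the clusters, Pcdh20 differed by -0.02 (adjusted p = 0.987) and Pcdh12 by 0.17 (A_51_P120275, adjusted p = 0.894) and 0.37 (A_52_P515769, adjusted p = 0.73).

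The promoters of the called genes are shown to give the sequence around their starts, from RefSeq tables of build GRCm38.p6, with 250 bases before and 50 after the start in the gene's own direction. A script searched them on both strands for CACCTG, a motif bound by Snai and Zeb repressors of cadherin genes, and for ACAATG, a motif of Sox factors, and capitals mark the one match. Pcdh9 has 2 promoter entries, of which only the first is shown. It lies at chr14:93890630-93890929 on the minus strand and held neither motif.
Pcdh9: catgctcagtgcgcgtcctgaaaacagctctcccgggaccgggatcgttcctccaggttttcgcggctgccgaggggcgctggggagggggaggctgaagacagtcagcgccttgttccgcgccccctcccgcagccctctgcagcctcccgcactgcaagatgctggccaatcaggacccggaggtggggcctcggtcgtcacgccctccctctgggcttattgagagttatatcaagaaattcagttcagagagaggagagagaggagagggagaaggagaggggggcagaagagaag
Pcdh15 lies at chr10:73821617-73821916 on the plus strand and held CACCTG once, starting at -102 from the start.
Pcdh15: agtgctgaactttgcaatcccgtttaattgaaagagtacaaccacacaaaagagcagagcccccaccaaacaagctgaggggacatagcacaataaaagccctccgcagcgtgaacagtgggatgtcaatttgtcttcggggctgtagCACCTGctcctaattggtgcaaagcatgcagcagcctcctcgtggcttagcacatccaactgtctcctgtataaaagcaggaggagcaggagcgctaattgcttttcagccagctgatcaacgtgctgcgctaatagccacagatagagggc
Pcdh10, which had the smallest p among delta protocadherins between the Sox2-GFP groups, lies at chr3:45378148-45378447 on the plus strand and held neither.
Pcdh10: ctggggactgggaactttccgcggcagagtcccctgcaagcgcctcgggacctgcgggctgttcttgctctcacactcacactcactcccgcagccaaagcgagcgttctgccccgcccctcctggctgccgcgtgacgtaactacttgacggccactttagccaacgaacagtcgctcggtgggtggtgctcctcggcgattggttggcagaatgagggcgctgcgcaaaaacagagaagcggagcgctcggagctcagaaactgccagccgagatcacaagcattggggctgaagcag
Among all 32851 promoter entries 20.2% held CACCTG and 12.6% held ACAATG. The table held 24 of the 64 member genes, of which 5 (20.8%) held CACCTG and 0 held ACAATG in the first entry of each gene.

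**Figure D2:**
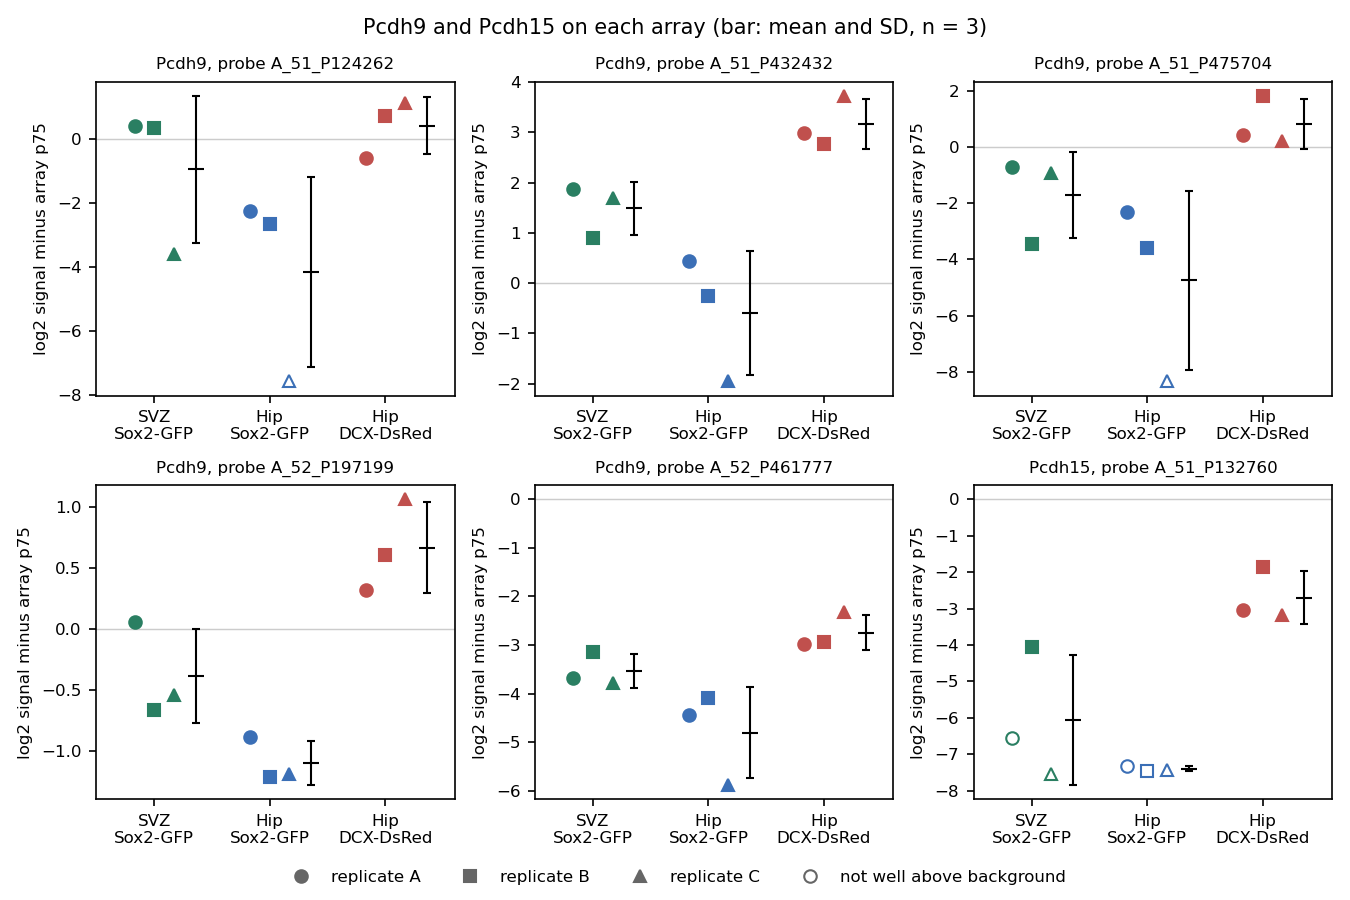
Values of the 5 Pcdh9 probes and the Pcdh15 probe on each array of the 3 groups (log2 scale, 0 at the 75th percentile of each array). Open points were not well above background and bars show the mean ± SD of 3 arrays. For all 6 probes the Hip Sox2-GFP arrays lie below every Hip DCX-DsRed array.

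Of the 17 delta protocadherin probes, 2 were called, both of Pcdh9, and 11 were lower in Hip Sox2-GFP cells, with a median of -1.12. Without Hip Sox2-GFP C that median was -0.17. Pcdh10, a delta protocadherin of neural circuits, did not pass the test with any of its 3 probes (differences between -1.30 and 0.70, and between -0.27 and 0.63 without replicate C). Pcdh19, whose human gene is known for a form of epilepsy, had a difference of -0.29 ± 0.39 (SE, adjusted p = 0.766).

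Type II cadherins had no call among 22 probes, with 17 of 22 lower in Hip Sox2-GFP cells and a median of -1.02, which was -0.27 without replicate C. All 7 Cdh10 probes were lower, with differences between -2.57 and -0.53, and none was called. Without replicate C they lay between -1.27 and 0.80, and A_51_P401761 was the probe that turned higher. The Cdh10 probe A_51_P307748 had values of 0.12, -0.02 and -6.13 in Hip Sox2-GFP cells, against 0.18, 0.93 and 0.23 in Hip DCX-DsRed cells. Replicates A and B lay just below the lowest Hip DCX-DsRed value and replicate C far below it. The difference was -2.46 (adjusted p = 0.473), and -0.39 without replicate C (adjusted p = 0.8042). Cdh19, known as a cadherin of Schwann cell precursors and glia, had values of -3.30, -2.62 and -8.39 in Hip Sox2-GFP cells, against -1.01, -2.04 and -0.94 in Hip DCX-DsRed cells. The groups did not overlap, replicate C was again the lowest, and the difference of -3.44 ± 1.34 (SE) was not called (adjusted p = 0.246). Leaving out replicate C gave -1.63 (adjusted p = 0.1695). Cdh20 (A_51_P471386) had values of 0.02, -0.16 and -0.49 in Hip Sox2-GFP cells, against 1.12, 1.56 and 0.68 in Hip DCX-DsRed cells. The difference of -1.33 ± 0.42 (SE) was not called (adjusted p = 0.155). The other Cdh20 probe, A_52_P436564, differed by -2.09 (limma adjusted p = 0.3256). Its values in Hip Sox2-GFP cells were -0.92, -0.35 and -4.19, lowest on replicate C. Cdh11 (A_52_P683146), a cadherin of mesenchyme and brain, differed by 0.04 (adjusted p = 0.978), and by 0.56 without replicate C (adjusted p = 0.5532). The differences of the 3 Cdh11 probes lay between -1.63 and 0.04.

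Among 9 type I probes none was called, and the median of -0.35 was 0.35 without replicate C. Cdh2 (A_51_P262773) had values of -0.99, -0.85 and -3.77 in Hip Sox2-GFP cells, against 0.21, 0.28 and 0.25 in Hip DCX-DsRed cells. The difference was -2.12 ± 0.83 (SE, adjusted p = 0.249), while the other Cdh2 probes differed by -0.28 (A_52_P164578) and 0.04 (A_52_P322725). Without replicate C these 3 probes had -1.17, 0.35 and 1.37. Cdh3, the P-cadherin of epithelia, had values of 0.78, -1.28 and 1.22 in Hip Sox2-GFP cells, against -1.23, -1.11 and -2.03 in Hip DCX-DsRed cells. The groups overlapped, and the difference of 1.70 ± 0.67 (SE) was not called (adjusted p = 0.254). The Cdh4 probe A_51_P238455 (R-cadherin) differed by -0.68 (adjusted p = 0.464), and by -0.44 without replicate C.

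Among the 6 probes of other Cdh genes none was called. Cdh26 had values of -0.51, 0.07 and -3.85 in Hip Sox2-GFP cells, against -2.86, -3.20 and -4.67 in Hip DCX-DsRed cells. Replicates A and B were higher than every Hip DCX-DsRed array and replicate C was not, and the difference was 2.15 ± 1.03 (SE, adjusted p = 0.35). Leaving out replicate C gave 3.36, which was called (limma adjusted p = 0.04988). Markers of choroid plexus epithelium were also high in Hip Sox2-GFP cells: the 10 markers summed to between 1.90 and 2.83 in SVZ Sox2-GFP cells, 51.0 and 171 in Hip Sox2-GFP cells, highest on replicate C, and 1.81 and 2.49 in Hip DCX-DsRed cells. Of these markers 8 of 10 were called higher in Hip Sox2-GFP than in Hip DCX-DsRed cells, and the sums on replicates A, B and C were 77.2, 51.0 and 171. The 7 ependymal markers summed to between 1.498 and 5.52 in SVZ Sox2-GFP cells, to 15.5, 23.2 and 12.9 on Hip Sox2-GFP A, B and C, and to between 0.444 and 1.12 in Hip DCX-DsRed cells, with 5 of 7 called higher in Hip Sox2-GFP than in Hip DCX-DsRed cells. On replicate C the choroid plexus sum and the Cdh3 value were the highest of the group. The ependymal sum and the Cdh26 value were the lowest there. The part of either cell type in the Cdh26 and Cdh3 values was not tested. Cdh13, held to the membrane by a lipid anchor with no cell-internal tail, differed by 0.11 (A_51_P114826, adjusted p = 0.934) and Cdh16 by -0.17 (adjusted p = 0.854). Cdh23, which pairs with Pcdh15 in the hair bundle, differed by -0.09 (A_52_P416341) and -0.18 (A_52_P625083).

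The 40 probes of the alpha, beta and gamma clusters had no call. The class medians were -0.18 for alpha, -0.51 for beta and 0.03 for gamma, and without replicate C -0.02, -0.19 and -0.11. The probe with the smallest p among the beta cluster was Pcdhb5 (A_51_P257292), with values of 0.15, 0.37 and -0.04 in Hip Sox2-GFP cells, against 1.13, 0.99 and 0.88 in Hip DCX-DsRed cells. These groups did not overlap, and the difference was -0.84 ± 0.30 (SE, adjusted p = 0.206). Celsr2 (A_52_P350148) had values of 1.79, 1.75 and 0.98 in Hip Sox2-GFP cells, against 2.07, 1.90 and 2.73 in Hip DCX-DsRed cells. The groups did not overlap, the difference of -0.73 ± 0.39 (SE) was not called (adjusted p = 0.403; -0.46 without replicate C), and none of the 6 Celsr probes was. Celsr3 (A_52_P210830) differed by -0.15 (adjusted p = 0.899) and Celsr1 by 0.22 (adjusted p = 0.818). The other Celsr3 probe, A_51_P507065, differed by -1.32 (limma adjusted p = 0.805) and was above background on 5 of 9 arrays. The shared beta probe of Pcdhb18 differed by -0.51 (adjusted p = 0.497) and Pcdhb16 (A_51_P191743) by -0.44 (adjusted p = 0.663). In the alpha cluster Pcdha4 differed by -0.44 (adjusted p = 0.65), and the 3 Pcdha9 probes, 2 of them shared with other alpha members, by values between -0.12 and 0.02.

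**Figure D3:**
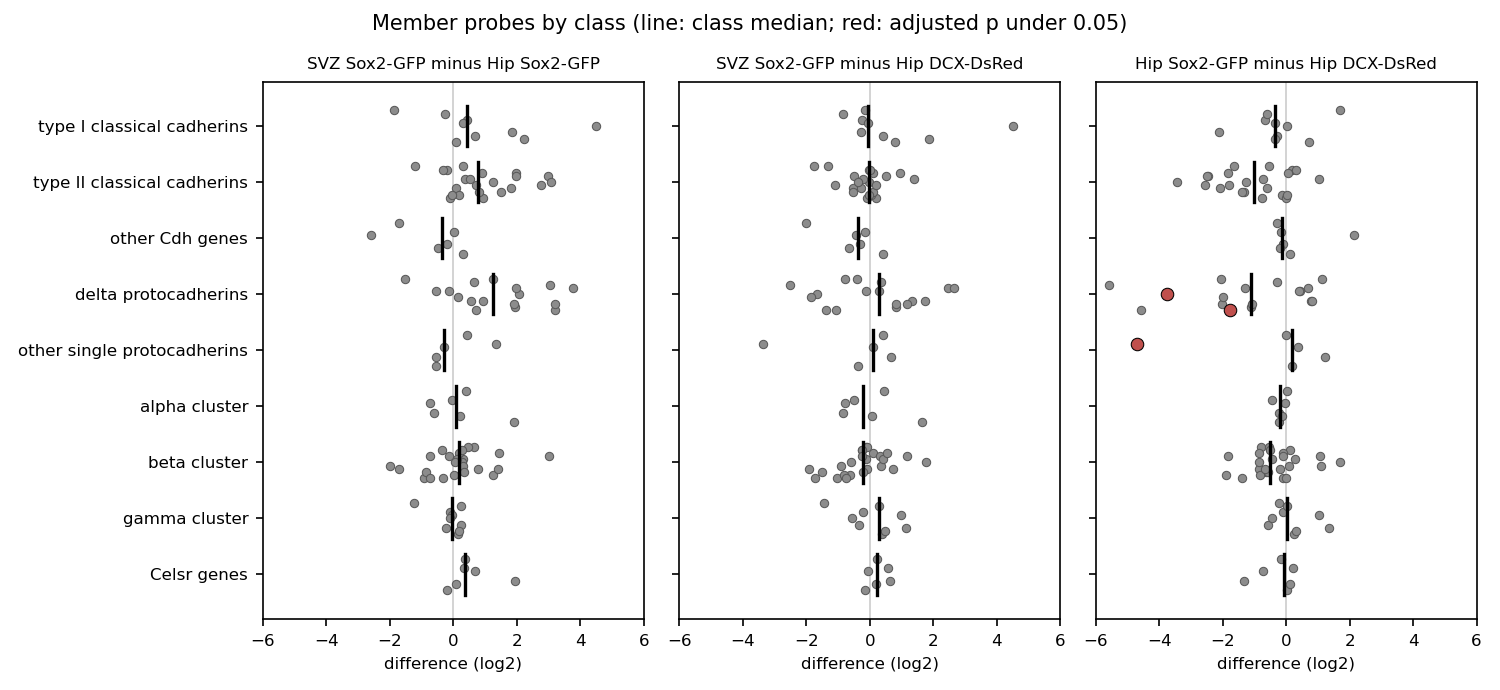
Differences of the 105 member probes by class for the 3 comparisons (log2 scale; short lines mark class medians; red points were called at an adjusted p under 0.05). The red points are 2 Pcdh9 probes and 1 Pcdh15 probe, all below 0, in the comparison of Hip Sox2-GFP minus Hip DCX-DsRed cells.

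SVZ Sox2-GFP cells were set against Hip Sox2-GFP cells to compare the stem cell regions, and the 3 arrays of Hip Sox2-GFP cells are those used above. No member of 105 was called (0.449% of all probes were). At an unadjusted p under 0.05 stood 12 members (11.4%), against 10.7% of all probes, and 17 members (16.2%) did not overlap, against 16.4%. The median member difference was 0.29, with 70 of 105 higher in SVZ Sox2-GFP cells, and 0.05 without Hip Sox2-GFP C, with 56 higher and 49 lower. Over all probes the median was 0.05, with 19360 higher and 17417 lower. Without Hip Sox2-GFP C the median of all probes was -0.09, with 16344 higher and 20436 lower. Of the delta protocadherin probes 14 of 17 were higher, with a median of 1.27 that was 0.69 without replicate C. Of the type II probes 17 of 22 were higher, with a median of 0.77 that was 0.05 without replicate C.

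Pcdh10 (A_51_P209150) had values of 2.29, 2.08 and 1.82 in SVZ Sox2-GFP cells, against -0.55, -0.80 and -3.76 in Hip Sox2-GFP cells. Every SVZ array was higher than every hippocampal one, and the difference of 3.77 ± 0.84 (SE) was not called (adjusted p = 0.140). Leaving out replicate C gave 2.74 (adjusted p = 0.1016), and with the slide as a fixed block it was 5.77 and called (limma adjusted p = 0.009433). That fixed-block fit rests for the Hip Sox2-GFP group on replicate C, since the other 2 arrays were alone on their slide. The other Pcdh10 probes differed by 1.95 (A_51_P441234, adjusted p = 0.746) and 1.97 (A_52_P215219, adjusted p = 0.477), and without replicate C by 0.20 and 2.24. Pcdh9 (A_51_P432432) was 2.08 ± 0.64 (SE) higher in SVZ Sox2-GFP cells and was not called (adjusted p = 0.284), with 1.40 without replicate C.

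Cdh2 (A_52_P322725) had values of -1.61, -0.43 and -1.45 in SVZ Sox2-GFP cells, against -4.24, -4.40 and -8.32 in Hip Sox2-GFP cells. The groups did not overlap, Hip Sox2-GFP C was not above background, and the difference of 4.49 ± 1.39 (SE) was not called (adjusted p = 0.287). The other Cdh2 probes differed by 1.84 (A_51_P262773) and 0.69 (A_52_P164578). Without replicate C the 3 probes had 3.15, 0.89 and 0.06. Cdh3 and Cdh26 had differences of -1.85 (adjusted p = 0.378) and -2.60 (adjusted p = 0.424), both lower in SVZ Sox2-GFP cells, and -1.36 and -3.81 without replicate C.

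Pcdh7, another delta protocadherin, was chosen after its values were seen. It had values of -4.13, -3.61 and -3.43 in SVZ Sox2-GFP cells, against -2.01, -2.34 and -2.28 in Hip Sox2-GFP cells. The groups did not overlap, in the direction opposite to that of most delta protocadherins, and the difference of -1.51 ± 0.34 (SE) was not called (adjusted p = 0.143). Among cluster probes, Pcdhb2 had values of -1.96, -1.99 and -1.28 in SVZ Sox2-GFP cells, against -3.0005, -2.98 and -3.51 in Hip Sox2-GFP cells. These did not overlap either, and the difference was 1.42 ± 0.36 (SE, adjusted p = 0.192). Pcdha6 (A_51_P324950) had values of 4.24, 3.87 and 4.90 in SVZ Sox2-GFP cells, against 3.41, 3.48 and 0.41 in Hip Sox2-GFP cells, with a difference of 1.90 ± 0.80 (SE, adjusted p = 0.448). The groups did not overlap, and replicate C was by far the lowest array. Leaving it out gave 0.89 (adjusted p = 0.5991). The other Pcdha6 probe, A_51_P488953, which is shared with other alpha members, had the opposite sign. It differed by -0.61 (limma adjusted p = 0.8131) and was above background on all 9 arrays.

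**Figure D4:**
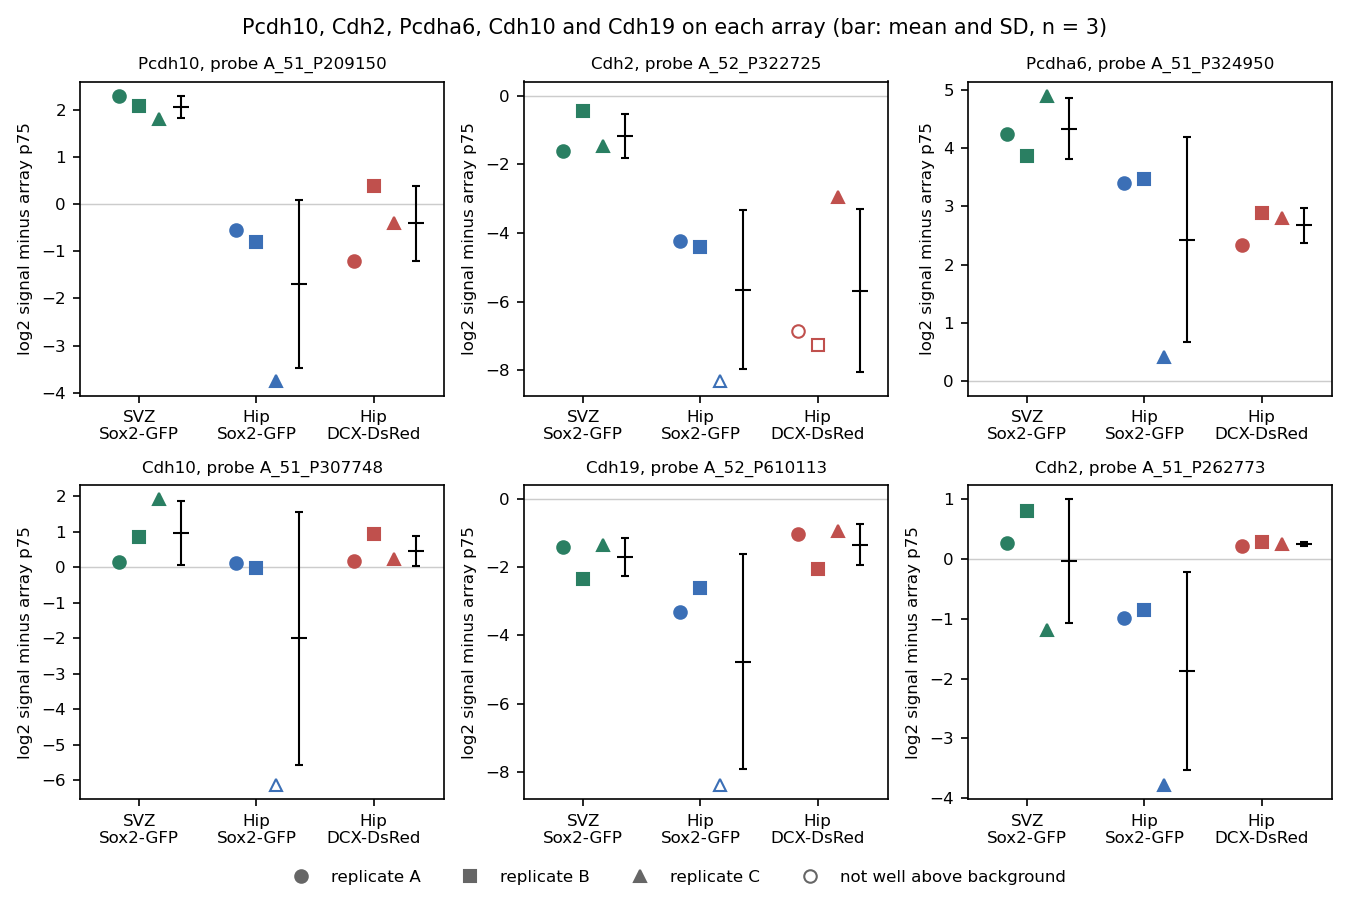
Values of 6 further member probes on each array (log2 scale, 0 at the 75th percentile of each array; open points were not well above background; bars show the mean ± SD of 3 arrays). Pcdh10 has SVZ Sox2-GFP arrays between 1.82 and 2.29, and Hip Sox2-GFP C is the lowest Hip Sox2-GFP array in every panel.

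SVZ Sox2-GFP cells were also set against Hip DCX-DsRed cells, a comparison in which brain region and reporter differ together. No member was called (1.38% of all probes were). At an unadjusted p under 0.05 stood 11 members (10.5%), against 13.5% of all probes, and 21 (20%) did not overlap, against 21.3%. The median member difference was -0.09, with 46 probes higher and 59 lower in SVZ Sox2-GFP cells. Over all probes it was -0.02, with 18003 higher and 18775 lower. Pcdh10 (A_51_P209150) averaged 2.06 ± 0.24 in SVZ Sox2-GFP cells and -0.41 ± 0.80 in Hip DCX-DsRed cells (SD, n = 3 each), with no overlap. The difference of 2.47 ± 0.84 (SE) was not called (limma adjusted p = 0.236). It was called when Hip Sox2-GFP C was left out of the shared estimate of the spread (limma adjusted p = 0.03305). In that fit 1 of 105 members and 1297 of all 36780 probes were called, against 508 of all probes with every array. Pcdh15 averaged -6.05 ± 1.79 in SVZ Sox2-GFP cells and -2.70 ± 0.72 in Hip DCX-DsRed cells (SD, n = 3 each), and was above background on 1 of 3 SVZ arrays. Its difference of -3.35 ± 0.83 (SE) was not called (limma adjusted p = 0.107), and was called without SVZ Sox2-GFP B (-4.34, limma adjusted p = 0.02688). That fit, in which 1 member and 331 of all probes were called, kept only SVZ arrays at background, with values of -6.55 and -7.53. The Hip DCX-DsRed arrays took the probe through the filter, so these differences are no measure of size and the call describes detection only. Cdh2 (A_52_P322725) differed by 4.52 ± 1.39 (SE, adjusted p = 0.187), with Hip DCX-DsRed A and B not above background. The other Cdh2 probes were above background on all 9 arrays and were not called. A_51_P262773 differed by -0.28, and A_52_P164578 averaged -2.61 in SVZ Sox2-GFP cells and -3.02 in Hip DCX-DsRed cells. Pcdhb22 had values of -2.02, -1.60 and -1.95 in SVZ Sox2-GFP cells, against -4.20, -4.55 and -2.12 in Hip DCX-DsRed cells. These did not overlap, and the difference was 1.76 ± 0.68 (SE, adjusted p = 0.300).

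Probes of 1 gene often disagreed. Of 25 member genes with several tested probes, all probes of a gene had the same sign in 15 genes for Hip Sox2-GFP minus Hip DCX-DsRed, in 14 for SVZ Sox2-GFP minus Hip Sox2-GFP and in 10 for SVZ Sox2-GFP minus Hip DCX-DsRed. In the clusters, probes may not tell members apart: 7 tested cluster probes carried accessions of several RefSeq genes, 3 in alpha, 1 in beta and 3 in gamma. Pcdhga7 shows the limit. Its probe A_51_P405358 had values of -1.27, -0.66 and -1.89 in SVZ Sox2-GFP cells, against 0.67, 0.27 and -0.41 in Hip DCX-DsRed cells, a difference of -1.45 ± 0.47 (SE, adjusted p = 0.206). The other 3 Pcdhga7 probes, each shared with other gamma members, differed by 0.98, 1.13 and 0.49, with the opposite sign. The cluster values given here are those of the named probes, which may also have read other members of their cluster.

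Genes known to work with cadherins were counted by list in the same fit. Each gene was read by 1 probe, the brightest of those tested, and other probes of these genes are not given. Among 12 catenins and actin linkers, 6 giant cadherins, 11 tail effectors and 8 cadherin-cleaving proteases none was called between Hip Sox2-GFP and Hip DCX-DsRed cells. The smallest p of each list belonged to the catenin-like Ctnnal1 (1.62, adjusted p = 0.094), the giant cadherin Fat4 (1.52, adjusted p = 0.478), the actin regulator Wasf1 (-1.30, adjusted p = 0.246) and the protease Adam10 (-3.21, adjusted p = 0.284). Among 11 planar polarity partners 1 was called, Prickle2, a cytoplasmic polarity protein, which had values of -0.20, -0.01 and -0.90 in Hip Sox2-GFP cells, against 1.58, 1.43 and 2.43 in Hip DCX-DsRed cells. It fell by 2.18 ± 0.41 on the log2 scale (SE; limma adjusted p = 0.03196), with no overlap. Among 8 regulators of the protocadherin clusters 1 was called, Smchd1, a chromatin protein that helps silence the clusters. Its values were 1.48, 1.44 and 1.36 in Hip Sox2-GFP cells, against 3.43, 3.30 and 2.73 in Hip DCX-DsRed cells. It fell by 1.73 ± 0.33 on the log2 scale (SE; limma adjusted p = 0.03396). Among 4 tested repressors of cadherin genes, Zeb2 was called, with values of 0.52, 0.34 and -1.40 in Hip Sox2-GFP cells, against 2.25, 3.12 and 3.56 in Hip DCX-DsRed cells. It fell by 3.16 ± 0.61 on the log2 scale (SE, limma adjusted p = 0.03431). Over all probes 3.15% were called in this comparison, and lists this short give no share to set beside it.

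Of 22 other settings, Zeb2 and Prickle2 were called in 12 each and Smchd1 in 11. With the slide as a fixed block the differences were -4.57 for Zeb2 (limma adjusted p = 0.01801), -3.02 for Prickle2 (limma adjusted p = 0.0212) and -1.49 for Smchd1 (limma adjusted p = 0.07111). These blocked values rest on replicate C for the Hip Sox2-GFP group. The myelin markers moved the same way as these 3 genes, and their part was not tested. Without Hip Sox2-GFP C, Zeb2 stayed called at -2.55 (limma adjusted p = 0.04239). Prickle2 at -1.91 (limma adjusted p = 0.05678) and Smchd1 at -1.70 (limma adjusted p = 0.05744) did not. In SVZ Sox2-GFP against Hip DCX-DsRed cells 1 gene of these lists was called, Zeb1, where 1.38% of all probes were called. Zeb1 had values of 0.55, 1.51 and 1.38 in SVZ Sox2-GFP cells, against -0.86, -1.01 and -1.09 in Hip DCX-DsRed cells. It rose by 2.13 ± 0.39 on the log2 scale (SE; limma adjusted p = 0.0451), and stood at 2.01 with the slide as a fixed block (limma adjusted p = 0.05332). Zeb1 was called in 10 of 23 other settings. The 8 astrocyte markers summed to between 76.8 and 162.5 in SVZ Sox2-GFP cells, 10.3 and 85.2 in Hip Sox2-GFP cells and 16.9 and 25.4 in Hip DCX-DsRed cells, with 1 of 8 called higher in SVZ Sox2-GFP than in Hip DCX-DsRed cells, and their part in the Zeb1 values was not tested. In SVZ Sox2-GFP against Hip Sox2-GFP cells none of these genes was called. The smallest p there belonged to Ctnnal1, a catenin-like protein, which was 2.30 ± 0.43 lower on the log2 scale in SVZ Sox2-GFP cells (SE; limma adjusted p = 0.0774).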

How the data were processed

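Expression was measured on 9 single-colour Agilent arrays in 3 groups of 3, taken with their replicate letters from the sample titles. The deposited intensity of each spot was the processed signal of Feature Extraction 9.5.1.1, per the file headers, with background subtracted and no scaling across arrays. Other columns, per the file headers, gave 0 or 1 flags for spots above background, saturated spots (0 here) and outliers. Limma stands in the submitters' processing notes without a version. The build of the probe coordinates is not given in the sources used here. A spreadsheet had changed symbols and rounded signals in the file of Hip DCX-DsRed A, so names came from another file.

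Of 43379 non-control spots for 41174 probes, those flagged as outliers were removed and the rest averaged by probe, which lost 464 probes and left 40710. Each array's 75th percentile was subtracted from its log2 processed signals. Probes well above background on 3 or more of 9 arrays were tested (36780) with limma 3.58.1 (lmFit and eBayes, 6 residual degrees of freedom) in R 4.3.3, with Benjamini-Hochberg adjustment over all of them. The fit was also run on simulated data of independent normal values, with no slide effect and no outlying array. That run checks the code and does not bear on the calls made here. Nothing in the labels says that replicates were separate pools, and p-values reflect only the spread among these arrays, which may be technical. The number of arrays limits the precision.

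A rule picked the probes to name. It took all called member probes and, in each class, the 3 probes with the highest mean. It also took the probe with the smallest p in each class and comparison, and the other tested probes of those genes. Not all of these are given in the text for every comparison. Also named were the called partner genes or otherwise the smallest p, and the 5 probes most like the called member with the smallest p. The members and lists were chosen with earlier results of these data known. Alternatives were other scaling, background correction, filters, outlier handling, 1 probe per gene, an intensity trend, slide and replicate letter as blocks, single slides, the 6 compared arrays alone and leaving out each array.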

Additional observations from a re-analysis of the deposited data

How the results depend on the processing

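Of 186 differences of named probes, recomputed 4046 times under 23 settings, 207 changed sign and none of those was called in either fit. Member probes called for Hip Sox2-GFP minus Hip DCX-DsRed numbered 3, and 5 with quantile normalization, 12 with the slide as a fixed block, 1 with only the 6 arrays compared and 0 on slide 3 alone. Over all probes the count of 1158 became 1454 with quantile normalization, 891 with only the 6 arrays, 3083 with the slide as a fixed block and 0 on slide 3. For SVZ Sox2-GFP minus Hip Sox2-GFP, 0 member probes and 165 of all probes were called. These became 15 and 3264 with the slide as a fixed block, where the Hip Sox2-GFP group rests on replicate C. The count over all probes was 249 with the slide as a random block and 24 with only the 6 arrays. It was 102 with 1 probe per gene, a fit of fewer probes. For SVZ Sox2-GFP minus Hip DCX-DsRed, 508 of all probes became 795 with normexp, 1173 with the slide as a fixed block, 1101 with it as a random block, and 0 on slide 1 or slide 3 alone. The cause of these shifts was not tested. The single-slide fits held fewer arrays, with 1 array in some groups, so their counts cannot be set against the others. Leaving out 1 array gave 0 to 3 member calls and 366 to 1172 over all probes for Hip Sox2-GFP minus Hip DCX-DsRed, 0 and 36 to 172 for SVZ Sox2-GFP minus Hip Sox2-GFP, and 0 to 1 and 72 to 1297 for SVZ Sox2-GFP minus Hip DCX-DsRed. Replicate letters did not pair the samples: the deviations of 9 pairs of arrays with the same letter correlated between -0.0394 and 0.0983, 0 of them above 0.1, and 3 of 9 arrays correlated best with their own letter. With the letter as a replicate block, member calls were 1, 0 and 0 and calls over all probes 662, 35 and 164, in the order of comparisons above, and both Pcdh9 calls were lost under the block (adjusted p = 0.06087 and 0.09085). The called Pcdh9 probe A_51_P432432 ranged from -5.68 to -3.08 with adjusted p between 0.00675 and 0.219 and was called in 15 of 22 settings, and Pcdh15 ranged from -4.94 to -1.63, the smaller difference with normexp, and was called in 14 of 22. Scaling by quantiles or the median moved the median of all probes by under 0.1.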
